A study of Mus musculus with 27 samples.

Results

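Left of the transcription factor gene Glis1 on mouse chromosome 4 lie 8 protein-coding genes within 290 kb: Tceanc2, Tmem59, Ldlrad1, Lrrc42, Hspb11, Dio1, Yipf1 and Ndc1. They were chosen by position, as the genes of the GRCm38 annotation between about 107.13 and 107.42 Mb. The rule used no measured value, though earlier results of these data were known when it was set. They are 8 of 154 genes of the region of chromosome 4 that the capture enriched, and 8 of the 74 genes of that region that lie left of the window studied around the deletion. In mice homozygous for a deleted boundary of topologically associating domains, these genes met the DNA beyond the lost boundary more often, relative to the DNA before it, than in wild-type mice. The difference was 1.07-fold to 1.19-fold and had the same direction for all 8 genes. Contact with Glis1, the nearest gene on their own side, was taken as a share of all contacts of a gene. In the 6 libraries this share did not separate the genotypes for any of the 8, though it did for Tmem59 without wild-type replicate 2. Over the 74 genes it was called higher for 1.35% and lower for 2.7%, so the lack of a call is not particular to the cluster.

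A topologically associating domain is a length of chromosome that folds mostly onto itself, so that its genes meet DNA of the same domain more often than DNA of the next. At many of their boundaries the protein CTCF halts cohesin, the ring complex that extrudes DNA loops, so that loops seldom cross. When a boundary is removed, sequences on either side of it have been seen at many loci to meet more often.

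Capture Hi-C was made for 3 testis samples of wild-type mice and 3 of mice carrying the B396.BOS knockout in homozygous form, a boundary deletion made with CRISPR-Cas9. Capture Hi-C cuts and ligates chromatin inside nuclei, so that DNA ends close together in space become joined, and enriches the products of chosen regions with probes. The labels give neither the age nor the strain of the mice and do not say that each library came from a separate animal, so the p-values measure the spread between these libraries, which may be partly technical. Testis holds many cell types, and a change in the mixture of cells cannot be told apart from a change of contacts within cells. RNA-seq of wild-type, heterozygous and homozygous testis, 3 samples each, entered only through the authors' deposited regression tables, so the labelled tissue was not checked against marker genes.

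The libraries held 5669898 to 7794641 contacts, of which 11.9% to 17.2% joined 2 bins of the captured region of chromosome 4. Replicate 2 of both genotypes had the highest share of contacts in this region. The deletion left 3 bins of 10 kb affected, 107.71 to 107.74 Mb, with about 22 kb missing by coverage. The 29 bins of the gene cluster had 2084, 3226 and 2575 contacts with these 3 bins in wild-type replicates 1 to 3 against 550, 919 and 694 in homozygous replicates 1 to 3. These bins were themselves picked for low coverage in the homozygous libraries against the wild-type ones. The lower counts therefore follow from that choice and do not test the labels. The affected bins were left out of all that follows. The window is the DNA from 107.42 to 107.96 Mb. Its left side, 29 bins, holds Glis1 and Dmrtb1, a gene of a transcription factor of germ cells entering meiosis. Its right side, 22 bins, holds Lrp8, a gene of a receptor for reelin and selenoprotein P.

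The order of the genes from left to right is as follows. Tceanc2, named for domains it shares with a transcription elongation factor, spans 44.2 kb and ends 531.6 kb left of the affected bins. Tmem59, a membrane protein of the Golgi and endosomes, is next at 509.0 kb, and Ldlrad1, named for a domain of the low-density lipoprotein receptor, at 488.9 kb. Lrrc42, a leucine-rich repeat protein, lies at 456.5 kb. Hspb11 encodes the intraflagellar transport protein Ift25, part of the trains that carry cargo along cilia and sperm tails, and lies at 425.5 kb. Dio1, the deiodinase that converts thyroxine to active thyroid hormone, lies at 402.8 kb. Yipf1, a Golgi membrane protein, lies at 350.2 kb. Ndc1, which anchors nuclear pores in the nuclear membrane and is needed for germ cell development in mice, is the nearest, 293.7 kb from the affected bins.

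The cluster is so dense that 5 of the 8 genes share a 10 kb bin with a neighbour, 3 bins being shared in all. For these neighbours the contacts of the shared bin count for both genes and cannot be told apart. The sequences between the starts of the divergent pairs show how close they lie: 263 bases separate Tceanc2 from Tmem59, and 59 bases separate Lrrc42 from Hspb11. These 2 intervals are printed with the 250 bases before the starts of Dio1 and Ndc1, from RefSeq annotation of GRCm38.p6. Capitals mark the GC box, GGGCGG or CCGCCC (the same motif read on the other strand), which is bound by Sp factors.
Tceanc2-Tmem59, 250 of the 263 bases, chr4:107178380-107178629, plus strand: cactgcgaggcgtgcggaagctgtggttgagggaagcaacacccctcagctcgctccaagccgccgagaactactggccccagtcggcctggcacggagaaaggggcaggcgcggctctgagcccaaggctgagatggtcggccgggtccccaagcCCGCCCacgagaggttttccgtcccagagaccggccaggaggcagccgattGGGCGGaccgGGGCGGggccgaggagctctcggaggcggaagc
Lrrc42-Hspb11, all 59 bases, chr4:107253534-107253592, plus strand: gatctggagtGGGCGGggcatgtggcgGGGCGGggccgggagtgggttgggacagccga
Dio1, 250 bases before the start, chr4:107307169-107307418, minus strand: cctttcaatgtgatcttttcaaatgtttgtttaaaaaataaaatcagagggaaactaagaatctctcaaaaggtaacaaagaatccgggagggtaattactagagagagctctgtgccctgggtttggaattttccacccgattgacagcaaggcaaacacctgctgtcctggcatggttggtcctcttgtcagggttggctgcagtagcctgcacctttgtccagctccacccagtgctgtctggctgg
Ndc1, 250 bases before the start, chr4:107367797-107368046, plus strand: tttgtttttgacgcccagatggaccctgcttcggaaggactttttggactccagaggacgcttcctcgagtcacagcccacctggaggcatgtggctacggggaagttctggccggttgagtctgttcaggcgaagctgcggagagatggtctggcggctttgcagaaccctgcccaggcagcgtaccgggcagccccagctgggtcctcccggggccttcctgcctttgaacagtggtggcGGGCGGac
The interval between Tceanc2 and Tmem59 holds 3 GC boxes and 23 CpG dinucleotides, and that between Lrrc42 and Hspb11 holds 2 GC boxes. Of the 7 member genes with an entry in the promoter table (all but Ldlrad1), 6 have the motif in the 250 bases before their start, against 32.7% of the 32851 promoters of that table. Dio1 is the one without it, with 46.8% GC and 2 CpG dinucleotides where the other 6 hold 14 to 25. The 6 with the motif are not separate stretches. The 250 bases of Tceanc2 and of Tmem59 are largely the same DNA. Those of Lrrc42 and of Hspb11 share the 59 bases that hold 2 GC boxes. Set against 32.7%, 6 of 7 therefore counts some motifs more than once. A match is a description of the letters and says nothing of binding.

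In wild-type testis, the contacts of the cluster's 29 bins with the captured region, counting pairs at least 20 kb apart, were divided as follows. DNA left of the cluster took 33.5% ± 0.13 (SD, n = 3), the cluster itself 25.1% ± 0.57, the left side of the window 17.2% ± 1.23, the right side 7.45% ± 0.37, and DNA right of the window 16.7% ± 1.02. Contact with each partner was also divided by the contact expected from distance alone, taken from the captured core of chromosome 2 in the same library, and set against the mean of the cluster with both sides. On this log2 scale, contact with the 4 bins of Dmrtb1 was above the mean for all 8 genes, from 0.21 at Yipf1 to 0.56 at Lrrc42, although Dmrtb1 lies 6.0 kb from the affected bins, at the far end of the left side. Contact with Glis1 was near the mean, with a median of 0.01 over the 8 genes and the lowest value, -0.23, at Yipf1. Contact with Lrp8, beyond the boundary, was also above it for all 8, with a median of 0.19. These are levels in wild type and carry no test. They rest on counts not balanced between bins. A difference in capture between partners therefore cannot be told apart from a difference in contact.

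The first comparison asked whether the genes gained contact beyond the deletion in homozygotes. It counts, for each gene and library, contacts with the right side per 1000 contacts with the left side. As both terms come from the same gene and library, no scaling between libraries enters. A gene was called different when the genotypes did not overlap and their mean log2 values differed by more than the larger SD, since 3 against 3 libraries have 20 arrangements and an exact permutation test, two-sided, cannot give a p below 0.1.

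Ndc1, the nearest gene, had 278, 268 and 259 right-side contacts per 1000 left-side contacts in wild-type replicates 1 to 3, against 338, 311 and 310 in homozygous replicates 1 to 3. The lowest homozygous library was above the highest wild-type library. The counts behind these values were 3565, 5243 and 4258 right-side contacts in wild type against 4116, 7099 and 5016 in homozygotes. On the log2 scale the balance was -1.90 ± 0.05 (SD, n = 3) in wild type against -1.65 ± 0.07 (SD, n = 3) in homozygotes, a difference of 0.25 or 1.19-fold (exact permutation p = 0.1).

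Yipf1, the next gene to the left, had 441, 408 and 423 per 1000 in wild type against 499, 465 and 487 in homozygotes, a log2 difference of 0.19. Dio1 had 481, 438 and 473 against 526, 491 and 496, a log2 difference of 0.12, with its lowest homozygous library only just above its highest wild-type library. Hspb11 had 493, 499 and 520 against 582, 556 and 546, a log2 difference of 0.15. In all 3 genes the genotypes were separate.

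Lrrc42, which shares a bin with Hspb11, had 544, 530 and 564 per 1000 in wild type against 603, 580 and 599 in homozygotes, a log2 difference of 0.12. Ldlrad1 had 535, 511 and 536 against 590, 584 and 617, a log2 difference of 0.18. The 2 genes farthest from the deletion showed the same direction. Tmem59 had 579, 545 and 563 against 618, 590 and 601, a log2 difference of 0.10, the smallest of the 8. Tceanc2 had 599, 554 and 563 against 628, 612 and 634, a log2 difference of 0.13.

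**Figure D1:**
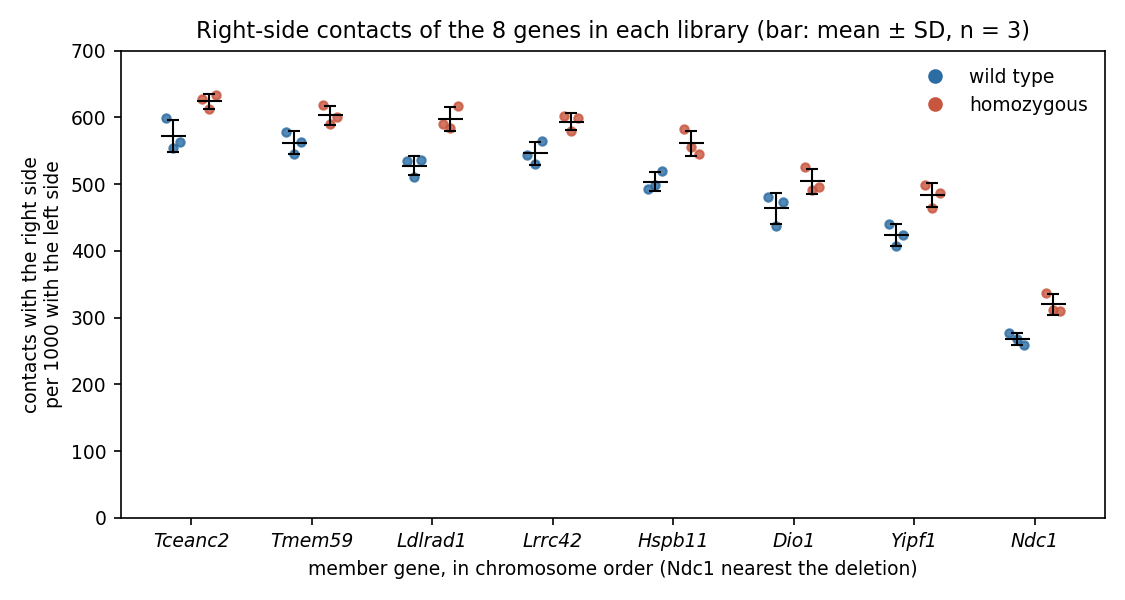
Contacts with the right side of the window per 1000 contacts with its left side, for each of the 8 genes in chromosome order. Points are libraries (3 wild type in blue, 3 homozygous in red) and bars the mean ± SD; the homozygous libraries lie above the wild-type ones for each gene, and the level is lowest at Ndc1, which is nearest to the left side.

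All 8 genes thus rose by the call rule. Among all 74 genes of the captured region left of the window, 18 were called higher, which is 24.3%, and 1 lower, which is 1.35%. The median log2 difference was 0.14 over the 8 genes and 0.07 over the 74, and 10 of the 66 other genes were called higher. Gm12870, which is among these 10, lies in a bin of Yipf1 and so repeats contacts of the cluster. The 8 all lie in the captured core, which starts at 107.11 Mb, while the captured region starts at 102.82 Mb. The others thus reach much farther from the deletion. The other genes had fewer contacts behind them: their mean number of right-side contacts per library had a median of 420, against 2503 for the 8. Of the 7 others with at least as many right-side contacts as the shallowest of the 8, 6 had a positive difference, with a median of 0.06, and 1, Usp24, was called higher. This look at the deeper genes was added after the values were seen. How far depth sets the share called was not tested beyond it, and how far distance from the deletion sets it was not tested.

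The order of the changes was Ndc1, Yipf1, Ldlrad1, Hspb11, Tceanc2, Lrrc42, Dio1, Tmem59. No neighbours in this order differed beyond their spread, as the difference between their changes was within the larger SD or the genotypes overlapped for each of the 7 neighbouring pairs. Of all 28 pairs of genes, 8 differed by the call rule, 4 of them with Ndc1: its change exceeded that of Tceanc2 by 0.13, of Tmem59 by 0.15, of Lrrc42 by 0.13 and of Dio1 by 0.13 (log2, exact permutation p = 0.1 each). The other 4 were Yipf1 with Tceanc2, with Tmem59 and with Dio1, and Ldlrad1 with Tmem59. The pairs share genes, and Ldlrad1 and Tmem59 also share a bin, so the pairs are not separate measurements. Pairs of the other genes left of the window were not compared, so these counts have no background. This comparison between genes was also added after the values were seen.

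A deletion brings the DNA on its 2 sides closer together along the chromosome. The balance was therefore recomputed with each term divided by the contact expected from distance, shortening distances across the deletion in homozygotes by the missing length. The differences then ran from 0.08 at Tmem59 to 0.18 at Ndc1, and all 8 genes still met the call rule. With a shortening by 3 whole bins, more than coverage shows missing, 7 met it, and Dio1 did not, at 0.08 with overlapping genotypes (exact permutation p = 0.2). Within 100 kb of the affected bins on either side, in place of the whole sides, the differences were largest at Yipf1 (0.30), Ndc1 (0.29) and Ldlrad1 (0.26), and Dio1 again overlapped, at 0.10 (exact permutation p = 0.3). The share called over the 74 genes left of the window was not computed for these alternatives, so their counts have no background.

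The size of the difference varied along the cluster. Taken bin by bin, all 29 bins had a positive log2 difference in right to left balance, from 0.06 to 0.38 with a median of 0.16, and 16 of them were called higher. With distances shortened by the missing length, 15 were called higher and the median was 0.13. Bins outside the cluster were not counted in this way, so these counts have no background by bin. By whole genes, 24.3% of the 74 left of the window were called higher. The largest difference, 0.38, was in the last bin of Ndc1, which begins at 107.41 Mb and is nearest to the deletion. The next, 0.30, was in the bin at the end of Hspb11, which begins at 107.28 Mb, with positions of smaller change on both sides of it. The smallest differences, 0.06 and 0.07, were in a bin within Tmem59 and in the bin that Lrrc42 and Hspb11 share. A pseudogene, Gm12870, lies in the bins of Yipf1 and cannot be separated from it.

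**Figure D2:**
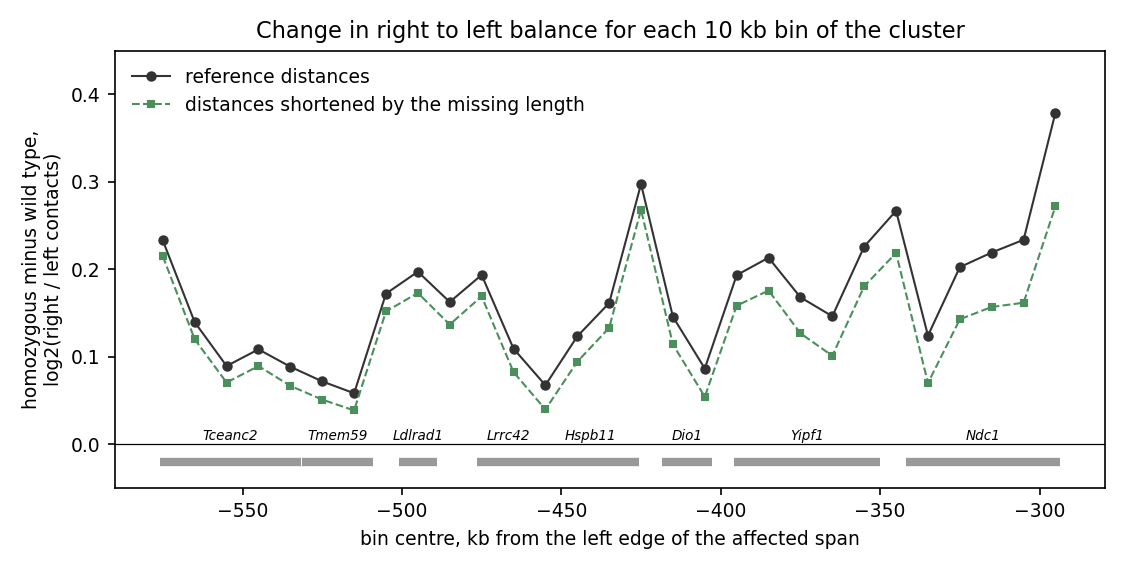
Homozygous minus wild-type log2 balance of right-side to left-side contacts for each of the 29 bins of 10 kb, against distance from the left edge of the affected bins; grey bars mark the genes. The solid line uses contact counts as deposited and the dashed line divides by the contact expected at distances shortened by the missing length; both stay above 0, with the highest value, 0.38, in the last bin of Ndc1.

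The second comparison asked where in the window the cluster's contacts differed. For each of the 51 bins of the window, contacts with the whole cluster were given per 1000 of the cluster's contacts with the window, so that more contacts on one side must mean fewer on the other. On the right side, 21 of 22 bins were higher in the homozygous mean and 8 were called higher, with a median log2 difference of 0.12. The 3 bins just right of the affected ones had the differences 0.21, 0.18 and 0.17. The bin next to the deletion, for example, took 14.6 per 1000 in wild type against 16.9 in homozygotes. On the left side 9 of 29 bins were higher, none was called higher and 3 were called lower, with a median of -0.05. Such counts were not made for the contacts of DNA outside the cluster, so they have no background.

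The bins called lower lay at both ends of the left side. The 4 bins of Dmrtb1, next to the deletion, had log2 differences of -0.08, -0.16, -0.17 and -0.14, and the bin with -0.16 was called lower. The other 2 called bins lie in Glis1, at its end nearest to the cluster, with -0.13 and -0.08.

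**Figure D3:**
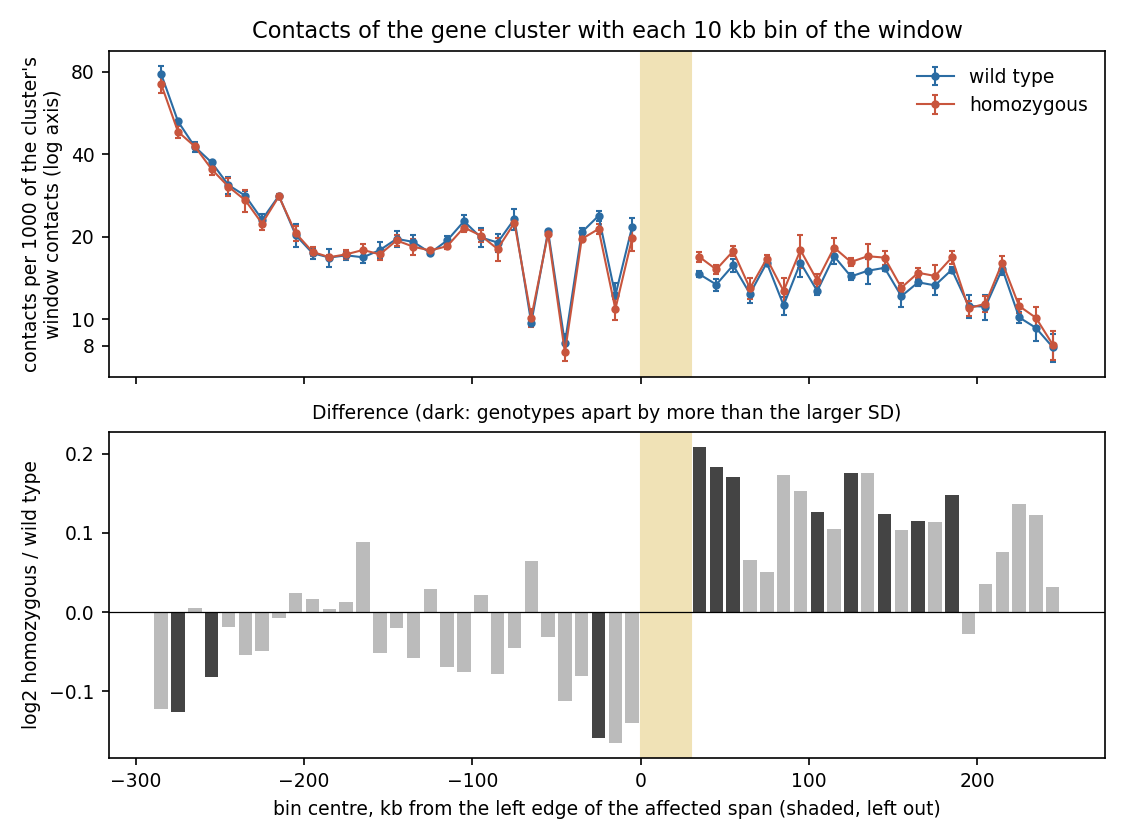
Above, contacts of the cluster with each 10 kb bin of the window per 1000 of its window contacts, on a log axis (mean ± SD of 3 libraries per genotype), against distance from the left edge of the affected bins, which are shaded and left out. Below, the log2 ratio of the means, dark where the genotypes were separate by more than the larger SD: 8 such bins on the right are higher and 3 on the left are lower in homozygotes.

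As a share of all contacts of a gene within the captured region at least 20 kb away, contact with the right side was called higher for 6 of the 8 genes, against 20.3% of the 74 genes left of the window. For Ndc1 this share was 6.67%, 7.16% and 6.41% in wild type against 7.93%, 8.26% and 7.54% in homozygotes. For Yipf1 it was 6.21%, 6.65% and 6.08% against 7.01%, 7.22% and 6.92%. In both genes every homozygous library was above every wild-type one. The other 4 called were Ldlrad1, Lrrc42, Hspb11 and Dio1. Tceanc2, at 5.64% ± 0.30 and 6.07% ± 0.19 (SD, n = 3 each), and Tmem59, at 5.37% ± 0.35 and 5.83% ± 0.22 (SD, n = 3 each), had higher means with overlapping libraries. With only contacts within the captured core, 107.11 to 107.96 Mb, as the denominator, these 2 were called as well. The share over the 74 genes was not recomputed with this denominator.

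In the 6 libraries the share with the left side did not separate the genotypes for any of the 8 genes. Of the 74 genes left of the window, 1.35% were called higher and 0% lower. For Ndc1 it was 25.2% ± 1.40 in wild type against 24.8% ± 1.58 in homozygotes (SD, n = 3 each), and over the 8 genes the log2 ratio ran from -0.03 to 0.02. For Glis1, which fills most of the left side, it ran from -0.02 to 0.03. With Glis1, 1.35% of the 74 genes were called higher and 2.7% lower, so few genes left of the window were called at all.

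For the 100 kb right of the affected bins, the share was called higher for 2 of 8 genes, Ndc1 and Yipf1, where 9.46% of the 74 genes were. It was called for 7 without wild-type replicate 2, for 5 without homozygous replicate 3, and for 4 when the denominator was the core alone. The share over the 74 genes was not recomputed for these settings. The share was 3.18%, 3.55% and 3.16% in wild type against 3.95%, 4.29% and 3.71% in homozygotes for Ndc1. For Yipf1 it was 3.004%, 3.405% and 3.002% against 3.494%, 3.749% and 3.589%. In both genes the homozygous libraries were all above the wild-type ones.

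With Dmrtb1, contact went the other way. The homozygous mean share was lower for all 8 genes in the 6 libraries, with log2 ratios from -0.14 to -0.02, and 2 genes, Yipf1 and Ldlrad1, were called lower, where 18.9% of the 74 genes were, so the members' share is near the background. The count of 2 became 4 without wild-type replicate 1, 3 without wild-type replicate 3 and 5 without homozygous replicate 1; the share over the 74 genes was not recomputed for these sets. Yipf1 had 1.74%, 1.82% and 1.67% in wild type against 1.57%, 1.61% and 1.59% in homozygotes. Ldlrad1 had 1.252%, 1.378% and 1.249% against 1.215%, 1.205% and 1.203%, groups that were narrowly separate. Contact of Ndc1 with Dmrtb1 was 2.05% ± 0.12 and 1.98% ± 0.10 (SD, n = 3 each), with overlapping libraries.

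The number of shares called rose when single libraries were left out. Over the 8 genes and 7 partners, 10 shares were called. There were 16 without homozygous replicate 3 and 26 without wild-type replicate 2. Without the latter, shares with the right side were called higher for all 8 genes and shares with Lrp8 for 4, but shares with the left side were also called higher for 2, Tmem59 and Lrrc42, and the share with Glis1 for 1, Tmem59. Calls over the 74 genes left of the window were not recomputed for these sets of libraries. The balance of right to left was called for all 8 genes whichever library was left out. Its genotypes were already separate in the 6 libraries, and leaving out 1 cannot make separate groups overlap. Only the SD part of the rule could therefore undo a call. Shares with overlapping libraries can become separate when 1 is left out, so the 2 measures cannot be ranked by these counts.

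The third comparison set Lrp8, on the right, against Glis1, on the left, as contacts with the 8 bins of Lrp8 for every 1000 contacts with the 22 bins of Glis1. Ndc1 had 123, 128 and 119 in wild type against 153, 158 and 140 in homozygotes, a log2 difference of 0.28. Ldlrad1 had 243, 254 and 239 against 280, 304 and 294, a log2 difference of 0.25. Yipf1 had 202, 208 and 196 against 243, 238 and 226, a difference of 0.22. In these 3 genes the genotypes were well apart.

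Hspb11 was the fourth gene called, at 229, 240 and 249 against 263, 295 and 257 and a log2 difference of 0.18. For Tceanc2, Tmem59, Lrrc42 and Dio1 the differences were 0.07, 0.06, 0.07 and 0.10, and the libraries of the genotypes overlapped (exact permutation p = 0.5, 0.4, 0.3 and 0.2). So 4 of 8 genes were called higher, against 17.6% of the 74 genes called higher and 0% called lower. As a share of all contacts, Lrp8 alone was called for 0 of the 8 genes, where 4.05% of the 74 were called higher, although its homozygous mean was higher for all 8. It was called for 4 genes without wild-type replicate 2, and for Ndc1 without homozygous replicate 3 or with the core as the denominator. For these settings too the share over the 74 genes was not recomputed. Wild-type replicate 2 had the highest wild-type share with Lrp8 in each of the 8 genes, above the lowest homozygous library each time.

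The same counts were fitted with edgeR's quasi-likelihood test, over 945 rows that pair each gene of the captured region outside the window with 7 partners. No row passed an adjusted p of 0.05 (0% higher and 0% lower), and 35 had an unadjusted p under 0.05, 7 of them among the 56 rows of the cluster. DESeq2 called 3 rows, all of the cluster with partners beyond the deletion. In simulated counts the edgeR fit of these rows recovered 43.3% of changes of 1.2-fold. In edgeR the smallest p of the cluster was that of Ndc1 with the right side, a log2 difference of 0.25 (SE 0.06, adjusted p = 0.573, edgeR). Ndc1 with the 100 kb right flank had 0.30 (SE 0.07, adjusted p = 0.573, edgeR), and with Lrp8 0.29 (SE 0.08, adjusted p = 0.943, edgeR). All 24 rows that join a gene of the cluster with the right side, the right flank or Lrp8 had a positive estimate, with a median of 0.11; 21 had one without homozygous replicate 2 and 23 without wild-type replicate 3. These 3 partners overlap one another, so the 24 rows are not separate measurements. The other 32 rows had a median of -0.03, and so had all 945 rows. The rows of the other genes across the deletion had a median of -0.0037.

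**Figure D4:**
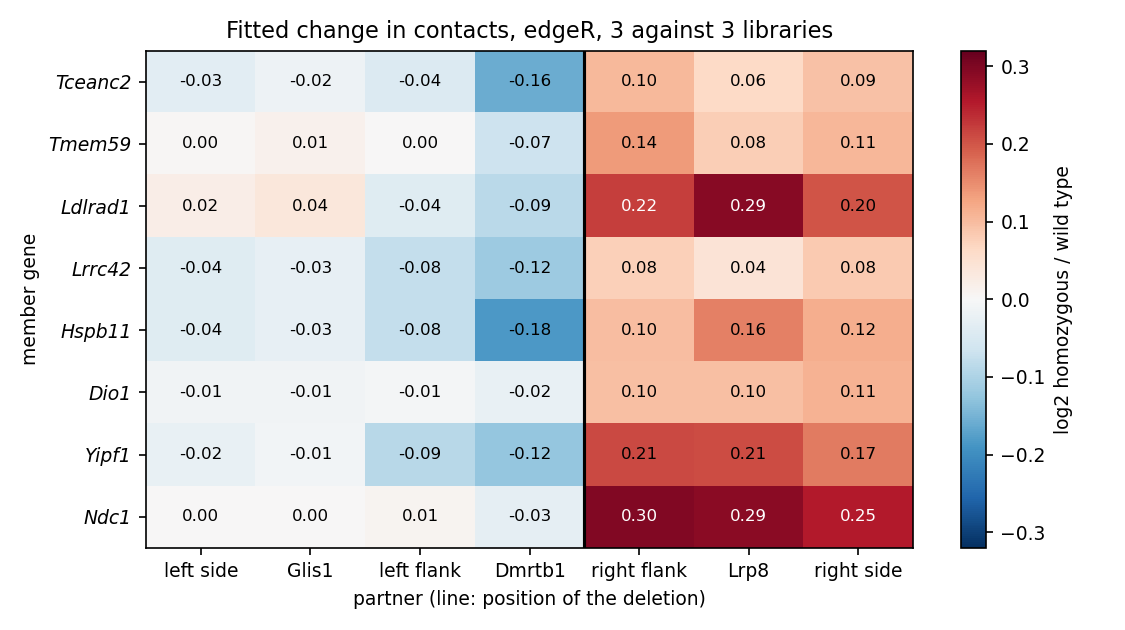
Fitted log2 ratio of homozygous to wild-type contacts for each gene (rows) with each partner (columns), from edgeR on 3 against 3 libraries; red is higher and blue lower in homozygotes, and the line marks the place of the deletion. The 24 cells right of the line are positive, up to 0.30 for Ndc1 with the right flank, and the Dmrtb1 column is negative in all 8 genes, though at Dio1 it turns to 0.0047 when scaled within the table; no cell passed an adjusted p of 0.05.

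At the finer grain of 20 kb bin pairs, edgeR called 1 of 14653 pairs of the region higher (0.00682%) and none lower (0%), with 663 at an unadjusted p under 0.05, and DESeq2 called 1. It is not among the pairs that join the cluster with the window. Of these 375 pairs, none was called by either tool and 26 had an unadjusted p under 0.05 in edgeR. In simulated counts the edgeR fit of pairs recovered 0% of changes of 1.2-fold and 8% of changes of 1.5-fold. The lack of calls thus cannot show a lack of changes of that size. Of the 165 pairs across the deletion, 140 had a positive estimate, with a median log2 difference of 0.16, against 0.01 for the pairs on the near side. The 6100 other pairs of the region across the deletion had a median of 0.02, and how many of them were positive was not counted. Pairs share bins with one another, so the 165 are not separate measurements.

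The pair with the smallest p joined the end of Ndc1 (107.40 to 107.42 Mb) with the 20 kb just right of the affected bins (107.74 to 107.76 Mb). It had 104, 180 and 125 contacts in wild type against 144, 259 and 209 in homozygotes, a log2 difference of 0.53 (SE 0.15, adjusted p = 0.528, edgeR). The same end of Ndc1 with the next 20 kb had 126, 145 and 135 against 156, 245 and 171, at 0.43. The 20 kb from 107.36 Mb, at the start of Ndc1, with those from 107.88 Mb, beyond Lrp8, had 105, 149 and 111 against 140, 212 and 169, at 0.46. In raw counts the genotypes overlap in the first and the last of these pairs and are separate in the other, and replicate 2 of each genotype had the highest count each time.

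Among pairs with a negative estimate, the 3 with the smallest p all led to Dmrtb1 or the bins beside it. Dio1's second bin and the first of Yipf1 (107.30 to 107.32 Mb) with 107.68 to 107.70 Mb had 115, 190 and 151 contacts in wild type against 70, 165 and 130 in homozygotes, at -0.39. A pair in Hspb11 (from 107.26 Mb) with the same bins had 112, 155 and 145 against 96, 153 and 95, at -0.32. A pair from 107.16 Mb, in Tceanc2 and Tmem59, with 107.66 to 107.68 Mb had 97, 179 and 125 against 77, 143 and 112, at -0.32. Each of the 3 failed the adjustment over all pairs.

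For the expression of the 8 genes, the authors' deposited table of regressions on genotype for genes outside the immediate locus lists 1 of the 8. It lists 566 genes, 1.57% of the 35970 tests that its FDR values imply, and 3 of the 154 genes of the captured region. Tceanc2 is in that table with a t statistic of 3.52, a p-value of 0.00975, an FDR of 0.634 and a slope of 1.37, at rank 551 of 566 by p-value. The coding of genotype and the unit of expression are not given in the sources used here, so neither the direction relative to the deletion nor the size of the slope can be read as a fold change, and the FDR is far above 0.05. Positive slopes make up 95.1% of those listed in the authors' deposited table, that of Tceanc2 among them. The table stops at a p-value of 0.00998, and Tmem59, Ldlrad1, Lrrc42, Hspb11, Dio1, Yipf1 and Ndc1 are not in it, which says only that no p-value below that limit is listed for them. In bulk testis, fewer cells of a type and less RNA per cell cannot be told apart.

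Genes of the same complex or family as a member were looked up in the same table, with a list of CTCF and cohesin genes. The lists of Hspb11, Ndc1 and Dio1 hold these members themselves, already given as not listed. Of 20 names of the intraflagellar transport complex to which Hspb11 belongs, 17 of them current symbols, 1 was listed, Ift52, with a slope of 5.03, a p-value of 0.000715 and an FDR of 0.564 in the authors' deposited table. None of 10 membrane and inner-ring genes of the nuclear pore (the list of Ndc1), none of 3 deiodinases (the list of Dio1) and none of 15 genes of CTCF and cohesin was listed. No gene of the 566 has an FDR under 0.05 in the authors' deposited table.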

How the data were processed

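Capture Hi-C of testis, 3 wild-type and 3 homozygous libraries, was analysed for the 10 kb bins overlapping 8 genes. The members and gene lists were chosen with earlier results of these data known. Contact counts per pair of 10 kb bins were used as the authors deposited them, without normalization; libraries were matched to files by genotype and number in the file names. Per the labels' protocols, the Arima kit and Agilent SureSelect enrichment were used; alignment and filtering are not given in the sources used here. The build is mm10, per the submitters' processing notes. Genes and promoters came from the RefSeq table of GRCm38.p6.

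The captured region was a run of bins holding 20% or more of the 99th percentile of bin totals; gaps below 100 kb were joined. Balances and shares were compared by two-sided exact permutation tests. Count tables with a mean of at least 5 were fitted with edgeR 4.0.16 (quasi-likelihood, TMM, Benjamini-Hochberg, threshold 0.05), with DESeq2 1.42.0 as an alternative, and tested on simulated data. Named genes were fixed as the 8 members, Glis1, Dmrtb1, Lrp8, listed members, and the 3 bin pairs with the smallest p in each direction. The deposited regression tables hold the t statistic as a score and the authors' p-values. Alternatives left out each library, used a replicate block, shortened distances, balanced matrices (200 rounds), changed filters, scaling, bin size and denominators. ChIP-seq was not analysed here.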

Additional observations from a re-analysis of the deposited data

How the results depend on the processing

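The right to left balance kept its direction for all 8 genes under every alternative run. It kept its call except for Dio1 with distances shortened by 3 bins and with 100 kb flanks. For single genes the difference without 1 library lay between 0.08 and 0.28. Leaving out 1 library can make overlapping genotypes separate but not the reverse, so direction and separation of this balance could not change in those sets. The Lrp8 to Glis1 balance, called for 4 genes, was called for 4 to 6 without 1 library. Calls of shares, 10 of 56, ranged from 11 to 26 without 1 library, and were 15 with the captured core as the denominator. The share of Lrrc42 with the left flank ranged from -0.160 to 0.0987 percentage points (homozygous minus wild type) without 1 library, the positive value being without wild-type replicate 2, the only set of libraries in which it was called. In the gene by partner table, 0 calls became 3 with DESeq2 and 3 with TMM within that table. In the 20 kb pairs, 1 call became 0 (without wild-type replicate 3) to 12 (without wild-type replicate 2). The cause of these changes was not tested. Same-numbered libraries correlated with 0.207, 0.462 and 0.0658 in their deviations over 20 kb pairs, so the numbers were not taken to pair the libraries, and not every library correlated best with its own number. With a replicate block, the gene by partner table gave 24 calls (25 with distances also shortened), the 20 kb pairs 74 (19 with distances also shortened), and the shares 29. Of the 24, 12 were rows of the cluster, 11 higher and 1 lower. Dividing by the expectation from distance without shortening, an alternative added after the values were seen, changed no call of either balance. Single 20 kb pairs rest on few contacts, 104 to 259 for the pair of the cluster with the smallest p.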
